A study of Mus musculus with 3 samples.

Results

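GABA-A receptors are chloride channels opened by the inhibitory transmitter GABA, and each channel is a ring of subunits drawn from several families. The combination most often described pairs alpha and beta subunits, whose interface binds GABA, with a gamma subunit, which ties the receptor to synapses and to benzodiazepine binding. In the spinal cord these receptors act beside glycine receptors on sensory relay neurons and on motor neurons, and astrocytes are also known to respond to GABA. The genes described here were chosen by symbol: the alpha subunit genes Gabra2, Gabra3 and Gabra5, the beta subunit genes Gabrb1 and Gabrb2, and the gamma subunit genes Gabrg1 and Gabrg3. All 7 symbols were found among the 31040 genes of the count table. Alpha subunits help set the affinity for GABA and the place of the receptor on the cell, and the product of Gabra5 is best known from receptors outside synapses.

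The counts came from single-nucleus RNA sequencing of lumbar spinal cord from 12 mice aged 90 days. The SOD1G93A mice were of the strain B6.Cg-Tg(SOD1*G93A)1Gur/J, which carries many copies of a mutant human SOD1 transgene and is used as a model of amyotrophic lateral sclerosis, and the wild-type (WT) mice were C57BL/6J controls from the same litters. There were 3 females and 3 males of each genotype, and nuclei of 1 mouse of each sex and genotype were hashed with antibodies and run together in each of 3 pools, called A, B and C. The transgene is expressed from the promoter of the human gene and is not restricted to one cell type. The table held 14662 nuclei and 206486779 unique molecular identifiers (UMIs, counts of captured RNA molecules), with 548 to 2259 nuclei and 6411715 to 36668441 UMIs per mouse. The authors had sorted the nuclei into 10 cell types and, among neurons other than motor neurons, 9 sub-types. Neurons (8800 nuclei) gave a median of 12864.5 UMIs per nucleus and astrocytes (1555) of 5338. The fewest nuclei were in ependymal cells (93 nuclei, 11 mice), motor neurons (67, with 1 to 11 per mouse) and fibroblasts (46, 10 mice). The 3 motor neuron markers summed to 679.5 to 2422 CPM (UMIs per 1e6 UMIs of the mouse in that type, where marker sums take the plain total of the UMIs and the levels of members a total scaled between mice) in motor neurons against 61.9 to 123 CPM in other neurons, and the 3 astrocyte markers to 867 to 2225 CPM in astrocytes against 16.6 to 29.8 CPM in neurons, so both labels held. Neuron markers, Rbfox3 and Syt1 among them, were read in every type. The nuclei labelled Microglia were deep, with a median of 46927 UMIs. Their 3 microglia markers summed to 38.8 to 122 CPM against 10.6 to 24.6 CPM in neurons, and each of 5 neuron markers stood at 64.4% to 65.7% of its neuron level. In the nuclei labelled Schwann_Meningeal 1 of the 5 neuron markers stood at 429% of its neuron level and the other 4 at 46.4% to 70.1%. No list held markers of Schwann or meningeal cells, so that label was not checked. Barcodes shared between pools numbered 15.

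In the mouse genome (GRCm38, the same assembly as the mm10 build of the counts, with GENCODE genes) the members lie in 4 places. Gabrg1 (chr5:70751047-70842617, minus strand), Gabra2 (chr5:70957597-71095849, minus strand) and Gabrb1 (chr5:71658113-72149037, plus strand) belong to one cluster of subunit genes. Gabrg3 (chr7:56716465-57387188) and Gabra5 (chr7:57407672-57510059) are neighbours on the minus strand of chromosome 7, with 20.5 kb between them. Gabrb2 (chr11:42419757-42629028, plus strand) and Gabra3 (chrX:72432681-72656848, minus strand) lie apart from the other members. The genes are 91.6 to 671 kb long. The counts include intronic reads, to which a long gene gives more room, so the levels of the members were compared between cell types for the same gene and not between genes.

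RefSeq promoter windows (GRCm38.p6) were found for all 7 members. They are shown for 4 genes because the comparison of astrocytes with neurons below divides them, with Gabra2 and Gabrg1 on one side and Gabra3 and Gabrb2 on the other. Each line is the 250 bases before a start annotated by RefSeq, 5′ to 3′ on the strand of the gene, and capitals mark every CG pair and every match to the TATA box letters TATAAA on either strand.
Gabra2, chr5:71095850-71096099, minus strand: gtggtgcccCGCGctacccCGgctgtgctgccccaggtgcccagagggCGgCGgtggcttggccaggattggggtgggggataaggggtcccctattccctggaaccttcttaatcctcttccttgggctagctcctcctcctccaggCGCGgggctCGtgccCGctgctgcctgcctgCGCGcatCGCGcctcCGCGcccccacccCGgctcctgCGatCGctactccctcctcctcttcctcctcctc
Gabrg1, chr5:70842618-70842867, minus strand: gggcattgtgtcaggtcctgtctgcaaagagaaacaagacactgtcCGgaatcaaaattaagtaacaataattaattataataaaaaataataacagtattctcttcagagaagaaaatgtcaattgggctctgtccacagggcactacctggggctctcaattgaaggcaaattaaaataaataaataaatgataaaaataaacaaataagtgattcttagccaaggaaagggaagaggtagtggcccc
Gabra3, chrX:72656920-72657169, minus strand: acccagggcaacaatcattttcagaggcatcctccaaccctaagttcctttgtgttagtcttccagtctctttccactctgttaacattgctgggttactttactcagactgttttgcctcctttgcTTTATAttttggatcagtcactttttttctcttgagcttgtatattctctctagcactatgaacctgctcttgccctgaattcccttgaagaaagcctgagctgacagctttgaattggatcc
Gabrb2, chr11:42420190-42420439, plus strand: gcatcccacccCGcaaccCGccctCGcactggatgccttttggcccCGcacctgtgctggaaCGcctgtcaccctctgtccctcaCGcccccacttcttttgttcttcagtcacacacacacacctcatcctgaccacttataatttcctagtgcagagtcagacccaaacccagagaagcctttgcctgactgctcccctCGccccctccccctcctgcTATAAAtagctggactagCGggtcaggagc
The starts of RefSeq and GENCODE differ for some genes, and the Gabrb2 window lies inside the GENCODE span given above. The windows differ widely in base composition, also within each side. The window of Gabra2 held 18 CG pairs and was 70.0% G or C, and that of Gabrg1 held 1 CG pair and was 35.6% G or C. Gabra3 had 0 CG pairs and Gabrb2 had 8, where the median of 32851 promoter windows was 6. The first window of Gabrb1, not printed because it runs into an exon of the neighbouring subunit gene, held 18 CG pairs. Gabrb2 has 3 windows, Gabra3 and Gabrb1 have 2 and the other members 1, and each window shown is the first. TATAAA occurred on either strand in both windows of Gabra3, which overlap and share the same match. It also occurred in the first window of Gabrb2 but not in its others, and in neither astrocyte-side window shown. Of all windows, 12.4% held it. The half-site letters of nuclear factor I, TTGGC on either strand, occurred 1 time in each shown window of Gabra2, Gabrg1 and Gabrb2, in neither of the other two of Gabrb2, and in 41.5% of all windows. No sequence feature counted here was shared by the 3 chromosome 5 members and missing from the others.

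Astrocytes carried the 3 chromosome 5 subunits at the highest level of any cell type, and the other 4 subunits at a fraction of the neuron level. The level of Gabrb1, a beta subunit gene, was 3953 ± 484 CPM in astrocytes and 758 ± 91.2 CPM in neurons (mean ± SD, n = 12 mice). Its lowest, median and highest values were 3559, 4436 and 4665 CPM in astrocytes of WT mice and 3379.8, 3502 and 4088 CPM in those of SOD1G93A mice. The lowest of these lay above the highest neuron value of any mouse, 927 CPM. Gabra2 had 1208 ± 197 CPM in astrocytes and 236 ± 19.6 CPM in neurons, and Gabrg1 had 142 ± 17.9 against 23.1 ± 2.86 CPM. Within a mouse, the difference of the log2(CPM + 1) levels was 2.34 ± 0.20 for Gabra2, 2.38 ± 0.17 for Gabrb1 and 2.56 ± 0.24 for Gabrg1 (SD over 12 mice), which is 5.06-, 5.21- and 5.92-fold. All 3 were higher in astrocytes in 12 of 12 mice. The same difference was −2.03 ± 0.48 for Gabra3, −1.99 ± 0.53 for Gabra5, −1.88 ± 0.35 for Gabrb2 and −2.07 ± 0.46 for Gabrg3, lower in astrocytes in 12 of 12 mice. These differences are given without a test, because the authors drew the cell types from the expression of the same nuclei, which may include the members.

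**Figure D1:**
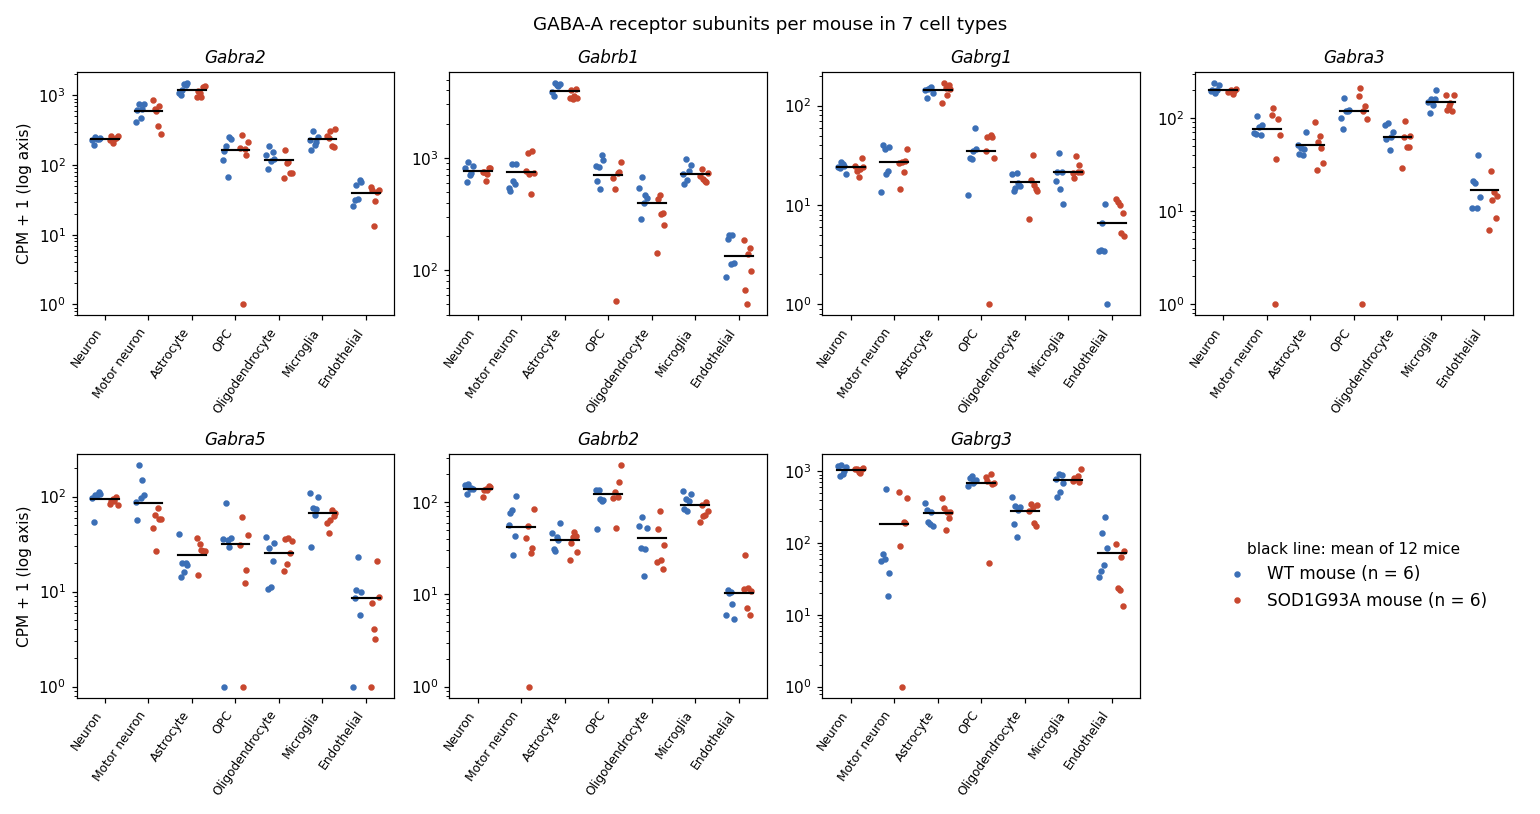
Levels of the 7 subunits in 7 cell types, in CPM + 1 on a log axis, with 1 point per mouse (WT blue, SOD1G93A red, 6 each) and a black line at the mean of 12 mice. Gabra2, Gabrb1 and Gabrg1 peak in astrocytes, the other 4 are highest in neurons, and points at the floor of the axis for OPCs, motor neurons and endothelial cells are mice with 0 UMIs.

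Astrocyte nuclei also held neuron transcripts, and the low level of the 4 other subunits was near that of neuron markers. Gabra3, Gabra5, Gabrb2 and Gabrg3 stood at 25.3%, 25.4%, 27.4% and 24.7% of their neuron level, and 5 neuron markers at 16.3% to 55.7%. Gabra2, Gabrb1 and Gabrg1 stood at 512%, 521% and 614%. Of 1555 astrocyte nuclei, 267 had no UMI of 3 neuron markers. In those, the summed level over all nuclei of a mouse was 4495 ± 555 CPM for Gabrb1, 1408 ± 232 for Gabra2 and 161 ± 72.6 for Gabrg1, with means above those in all astrocytes. The 4 others were lower there, at 87.1 ± 66.9 CPM for Gabrg3 and 10.3 to 24.0 CPM for Gabra3, Gabra5 and Gabrb2. These nuclei were also shallower, with a median of 4364 UMIs. After thinning every nucleus to 2000 UMIs, 97.9% of astrocyte nuclei had a UMI of Gabrb1, 83.1% of Gabra2 and 24.7% of Gabrg1 (unthinned 98.5%, 92.7% and 49.5%). In endothelial nuclei, where all 7 members were low, the thinned shares were 19.2%, 6.11% and 1.21% (unthinned 49.7%, 17.8% and 4.39%, median depth 6963 UMIs). Thinning left out 76 astrocyte and 17 endothelial nuclei with fewer UMIs.

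The 5 sub-clusters that the authors made of the astrocytes also differed, and the 3 chromosome 5 subunits were lowest in sub-cluster 2. Gabrb1 ranged from 2312 ± 458 CPM in sub-cluster 2 to 5865 ± 1343 CPM in sub-cluster 3, and Gabra2 from 649.6 ± 223 to 1619 ± 350.3 CPM in the same pair. Gabrg1 was highest in sub-cluster 0, at 202 ± 33.1 CPM, and lowest in sub-cluster 2, at 85.1 ± 33.6 CPM. In sub-cluster 3, the highest for Gabrb1 and Gabra2, Gabrg1 had 104 ± 38.5 CPM. Sub-cluster 2 had the highest level of the 4 other subunits, and Gabrg3 reached 747 ± 304 CPM there, above sub-cluster 4, the next in order, in 12 of 12 mice. The 5 neuron markers summed to 1243 to 3209 CPM in sub-cluster 2 and to 304 to 899 CPM in sub-cluster 0. The part of these neuron transcripts in the levels of sub-cluster 2 was not tested.

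In 3 other non-neuronal types the subunits followed the neuron markers more closely. In oligodendrocytes the 5 markers stood at 21.6% to 35.6% of the neuron level, and Gabra3, Gabra5, Gabrb2 and Gabrg3 at 26.5% to 31.3%. Gabra2, Gabrb1 and Gabrg1 stood at 49.5%, 51.9% and 69.2%. In the 448 oligodendrocyte nuclei without UMIs of the 3 neuron markers all 7 members were lower on average than in all 2165, Gabrb1 at 218 ± 117 against 393 ± 137 CPM and Gabrg3 at 40.1 ± 20.3 against 278 ± 94.0 CPM. In the nuclei labelled Microglia the neuron markers were at 64.4% to 65.7% and the 7 members at 66.0% to 101%, and 2 of these 223 nuclei lacked all 3 neuron markers used for this split. In endothelial cells the markers were at 7.15% to 18.3% and the members at 6.82% to 24.3%. In each of these 3 types the 3 chromosome 5 subunits stood above the 4 others on this scale. The part of neuron transcripts in the levels of these types was not tested beyond the nuclei without neuron markers.

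**Figure D2:**
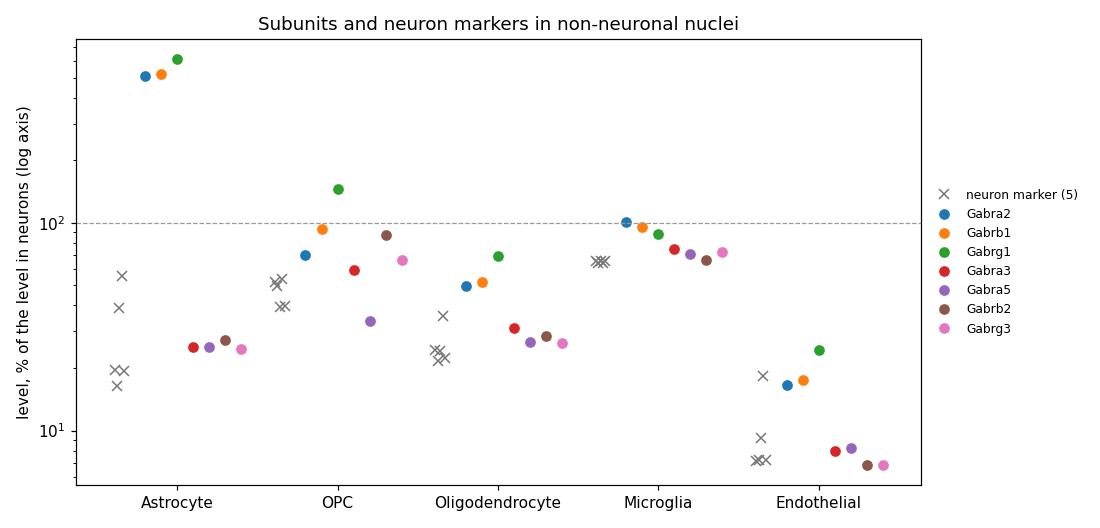
Mean level over the mice in 5 non-neuronal types as a percent of the mean level in neurons (log axis), for the 7 subunits (coloured points) and 5 neuron markers (grey crosses). In astrocytes the 3 chromosome 5 subunits lie at 512% to 614%, while the other 4 lie at 24.7% to 27.4%, within the range of the markers.

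Oligodendrocyte precursor cells (OPCs, 181 nuclei) had a lower value than neurons in 12 of 12 mice for 2 members, Gabra5 and Gabrg3. Gabra5 had 31.0 ± 23.9 CPM in OPCs against 92.3 ± 15.3 in neurons, and Gabrg3 695 ± 218 against 1049 ± 111 CPM. Gabrg1 had 33.7 ± 16.4 CPM and was above neurons in 10 of 12 mice, and Gabrb1 had 710.3 ± 267 CPM, above neurons in 6 of 12. Gabra3 was below neurons in 11 of 12 mice, and Gabra2 and Gabrb2 in 10 of 12. The 5 neuron markers stood at 39.4% to 53.8% of the neuron level in OPCs and the members at 33.6% (Gabra5) to 146% (Gabrg1). Only 14 OPC nuclei, from 8 mice, lacked the 3 neuron markers, and in these Gabrg3 had 797 ± 477 CPM from 59 UMIs, Gabrb1 357 ± 288 CPM from 34 UMIs, and the other 5 members 0 to 5 UMIs each. The SOD1G93A female of pool C gave 2 OPC nuclei, in which 4 members had 0 of 11083 UMIs, a count that allows up to 271 CPM of the plain total. On the scaled total used for the levels, 1 UMI of that mouse was 52.1 CPM.

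Among dorsal and ventral excitatory and inhibitory neurons, the members split by position in the cord. The mean of dorsal excitatory (DE) and dorsal inhibitory (DI) neurons was set against the mean of ventral excitatory (VE) and ventral inhibitory (VI) neurons within each mouse. Higher dorsally in 12 of 12 mice were 5 members, by 1.33 ± 0.42 for Gabrg3, 1.22 ± 0.33 for Gabrg1, 1.14 ± 0.44 for Gabra2, 0.55 ± 0.22 for Gabrb1 and 0.28 ± 0.18 for Gabra3 (log2 difference, mean ± SD). Lower dorsally in 12 of 12 mice were 2 members, with −0.68 ± 0.14 for Gabrb2 and −0.60 ± 0.23 for Gabra5. Ventral cholinergic and ventral mixed neurons were not in this contrast, and their levels did not all follow it. The cholinergic ones had 1152 CPM of Gabrb1, against 977 in DE and 554 in DI neurons, and the lowest level of Gabra5 (26.5 CPM). Gabrb2 was highest in the mixed ones (224 CPM). For Gabrb1, DI neurons lay near VE neurons (577 CPM). The dorsal horn receives sensory input and the ventral horn holds the circuits around motor neurons. The ventral types were deeper, with medians of 19812 (VE) and 23031 (VI) UMIs per nucleus against 10188 (DE) and 11763 (DI), and with the mean of each nucleus' own CPM 5 of the 7 members kept 1 direction in every mouse. The others were Gabra3, higher dorsally in 10 of 12 mice, and Gabrg1, in 11 of 12.

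Gabrg3, a gamma subunit gene, was highest in DE neurons, at 1652 ± 251 CPM, and lowest in VE neurons, at 536 ± 131 CPM. DE exceeded the next sub-type, mid inhibitory (MI) neurons with 1213 ± 164 CPM, in 11 of 12 mice. The sub-types from MI down to ventral cholinergic (VC) neurons, among them mid excitatory (ME), DI and ventral mixed (VM) neurons, did not differ from their neighbours in the order beyond 1 SD of the difference within a mouse. Gabra2 ran from 343 ± 34.4 CPM in DE to 118 ± 41.9 CPM in VI with no step between neighbours beyond 1 SD. Gabrg1 ran from 39.3 ± 16.4 CPM in ME to 12.8 ± 8.43 CPM in VI, also without such a step, and rested on 108 and 143 UMIs in these sub-types. Gabra3 was the most even member, from 237 ± 71.7 CPM in ME to 164 ± 29.1 CPM in VI.

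Gabra5 and Gabrb2 followed other orders. Gabra5 was highest in VE and VI neurons, at 121 ± 23.4 and 120.4 ± 31.2 CPM, and 59.0 ± 14.5 CPM in DI and 57.1 ± 14.7 CPM in MI neurons. It was lowest in VC neurons, which release acetylcholine but are not motor neurons, at 26.5 ± 14.6 CPM, below MI neurons in 11 of 12 mice by 1.24 ± 0.95 on the log2 scale. Gabrb2, a beta subunit gene, was highest in VM neurons, at 224 ± 73.6 CPM, and lowest in DI neurons, at 76.6 ± 14.5 CPM, where it lay below VC neurons in 11 of 12 mice. Gabrb1, the other beta subunit gene of the list, was highest in ME (1153 ± 195 CPM) and VC (1152 ± 191 CPM) neurons, and the step from DE (977 ± 129.7 CPM) to unclear neurons (731 ± 86.6 CPM) was seen in 12 of 12 mice. Over the 9 sub-types Pearson's r between mean log2 levels was 0.826 for Gabra2 and Gabra3, 0.0566 for Gabrb1 and Gabrb2 and −0.581 for Gabrb2 and Gabrg1, a description of 9 points that share mice and libraries.

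**Figure D3:**
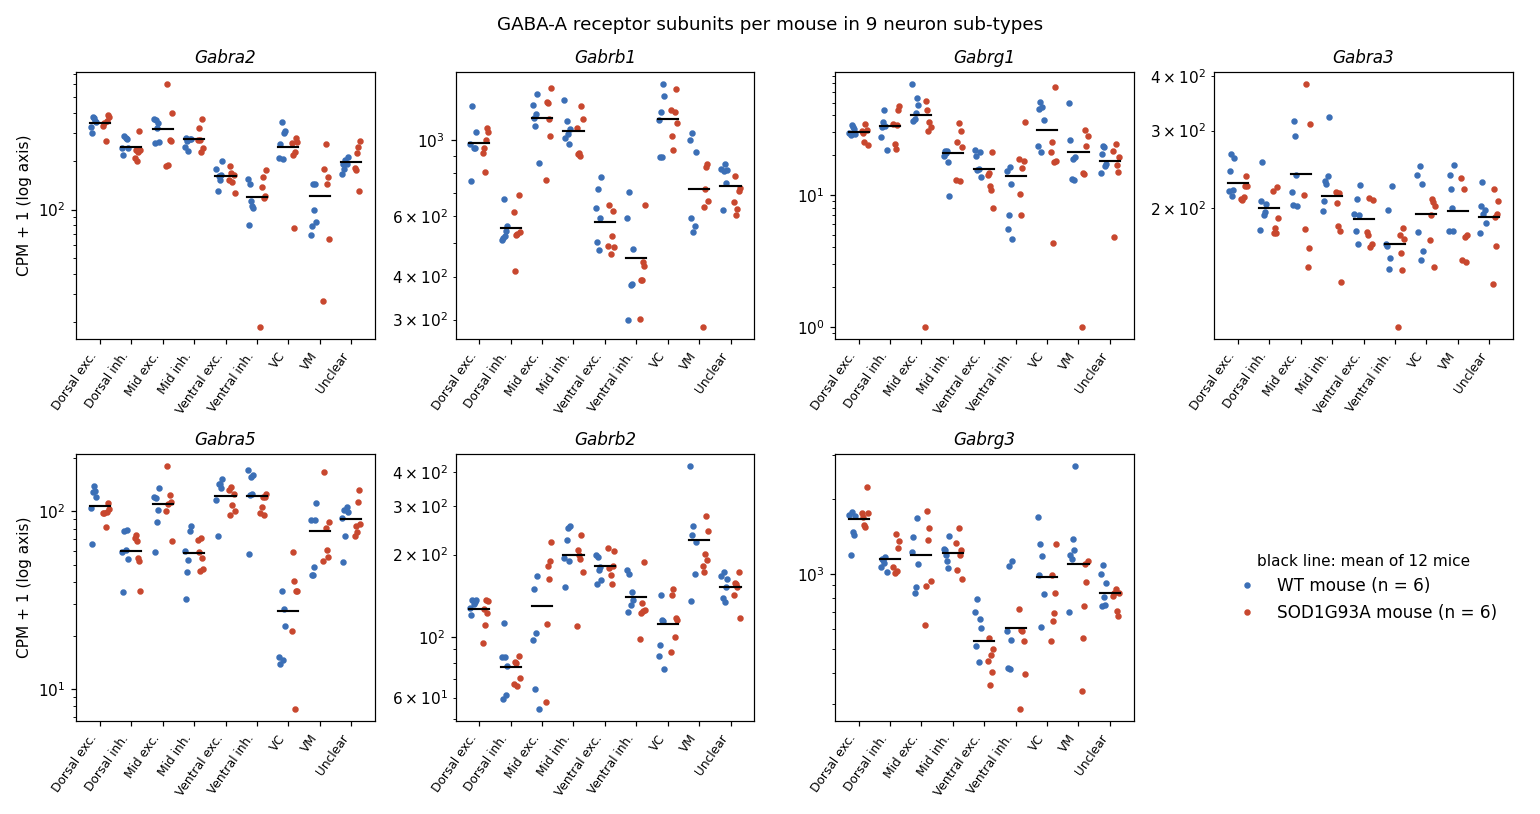
Levels of the 7 subunits in the 9 neuron sub-types, in CPM + 1 on a log axis, with 1 point per mouse (WT blue, SOD1G93A red) and a black line at the mean of 12 mice. Gabrg3 and Gabra2 lie higher in dorsal than in ventral excitatory and inhibitory neurons, Gabrb2 lies lowest in dorsal inhibitory neurons, and Gabra5 lies lowest in the VC neurons.

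Inhibitory neurons (mean of DI, MI and VI) were lower than excitatory neurons (mean of DE, ME and VE) in 12 of 12 mice for 2 members. The log2 difference was −0.59 ± 0.11 for Gabra5 and −0.44 ± 0.16 for Gabrb1. For Gabra5 the difference lay in the dorsal and mid pairs. DI neurons had 59.0 CPM against 105 in DE, and MI neurons 57.1 against 109 in ME. The ventral pair stood at 120.4 (VI) and 121 (VE) CPM, with VE higher in 7 of 12 mice. Gabra2, at −0.41 ± 0.26, was lower in 11 of 12 mice. The mean differences of Gabra3, Gabrb2, Gabrg1 and Gabrg3 lay between −0.30 and −0.11, each within 1 SD, with 3 or 4 mice in the other direction.

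Motor neurons, the cells lost in this model, had another mix of subunits than the other neurons. Gabra2 was higher in motor neurons, at 588 ± 173 against 236 ± 19.6 CPM, in 12 of 12 mice, by 1.25 ± 0.51 on the log2 scale. Gabrg3 was lower in 12 of 12 mice, with a mean level 17.7% of that in other neurons. Gabra3 and Gabrb2 were also lower in 12 of 12 mice, at 37.4% and 38.1%. Gabrb1, Gabra5 and Gabrg1 stood at 98.8%, 92.5% and 113%, with mice on both sides of 0. For Gabra5 the mean was 117 CPM in WT and 53.9 CPM in SOD1G93A motor neurons, against 95.5 and 89.0 CPM in other neurons. The SOD1G93A female of pool C gave 1 motor neuron nucleus, in which Gabra3, Gabrb2 and Gabrg3 had 0 UMIs of 27658. That allows up to 108 CPM of the plain, unscaled total each, for counting error only (3 counts).

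Gabrg3 varied widely among the motor neuron nuclei. Of 67 nuclei, 25 had no UMI of it and 45 were under 100 CPM, while 10 nuclei from 7 mice had 500 CPM or more, limits chosen after the values were seen. The median over nuclei was 17.4 CPM and the highest 1444 CPM. By contrast, no motor neuron nucleus was without Gabra2 or Gabrb1, whose medians were 475 and 603 CPM. After thinning to 2000 UMIs, 19.9% of motor neuron nuclei and 62.5% of other neurons had a UMI of Gabrg3 (unthinned 62.7% and 81.0%, at median depths of 53245 and 12864.5 UMIs), against 8.59% in endothelial nuclei (unthinned 21.2%). The nuclei under 100 CPM were 35 of 44 in WT mice and 10 of 23 in SOD1G93A mice, and nuclei are not replicates of a genotype. The median summed level of the motor neuron markers was 1384 CPM in the nuclei under 100 CPM and 856 CPM in those at 500 CPM or more. The 12 nuclei between these limits had 1046 CPM. The cholinergic markers followed no such order, with 288 CPM under 100 CPM, 461 CPM between the limits and 261 CPM at 500 CPM or more. Of the 10 nuclei at 500 CPM or more, 7 were from SOD1G93A mice.

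Whether the SOD1G93A genotype moved the subunits was tested with limma-voom on UMIs summed per mouse, with a call at an adjusted p under 0.1 over all genes of a type. No member was called in the 10 cell types, where 0.568% of all tests were called, nor in the 9 neuron sub-types, where 0.0252% were. The tests numbered 53 in the cell types and 62 in the sub-types. All 7 members passed the filter on low counts in 6 cell types, 6 in OPCs (not Gabra5), 3 in endothelial cells, 2 in ependymal cells and 0 in fibroblasts, and in the sub-types Gabrg1 in VM neurons alone did not pass. At an unadjusted p under 0.05 there were 6 of 53 tests (11.3%, against 7.18% over all genes) and 5 of 62 (8.06%, against 4.54%). edgeR's quasi-likelihood test and DESeq2 also called 0 members in both sets, with 3 and 4 at an unadjusted p under 0.05 in the cell types and 4 and 2 in the sub-types.

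In neurons, where 0.0255% of 15681 genes were called, the genotypes overlapped for every member. The log2 fold changes of the 7 lay between −0.089 (Gabra3) and 0.035 (Gabra2), with SEs of 0.057 to 0.12. The widest 95% interval, that of Gabra5, ran from −0.32 to 0.22, that is from 0.802- to 1.16-fold. Gabrg3 in neurons had a lowest, median and highest level of 864, 1077 and 1216 CPM in WT and 949, 1075 and 1117 CPM in SOD1G93A mice. Gabra3 had 185, 198 and 237 CPM in WT and 179.8, 192 and 204 CPM in SOD1G93A mice. For both genes the ranges overlapped. Set against the WT mouse of the same pool and sex, the SOD1G93A mouse was lower in 6 of 6 pairs for Gabra3 and in 3 of 6 for Gabrg3. Of the 51 comparisons of a member in a cell type with 6 pairs, 1 went one way in every pair (1.96%, against 4.71% over all genes tested in these types). In the sub-types 2 of 62 did, Gabrg1 in VE and Gabrg3 in VM neurons, both lower in SOD1G93A mice (3.23%, against 3.35%).

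**Figure D4:**
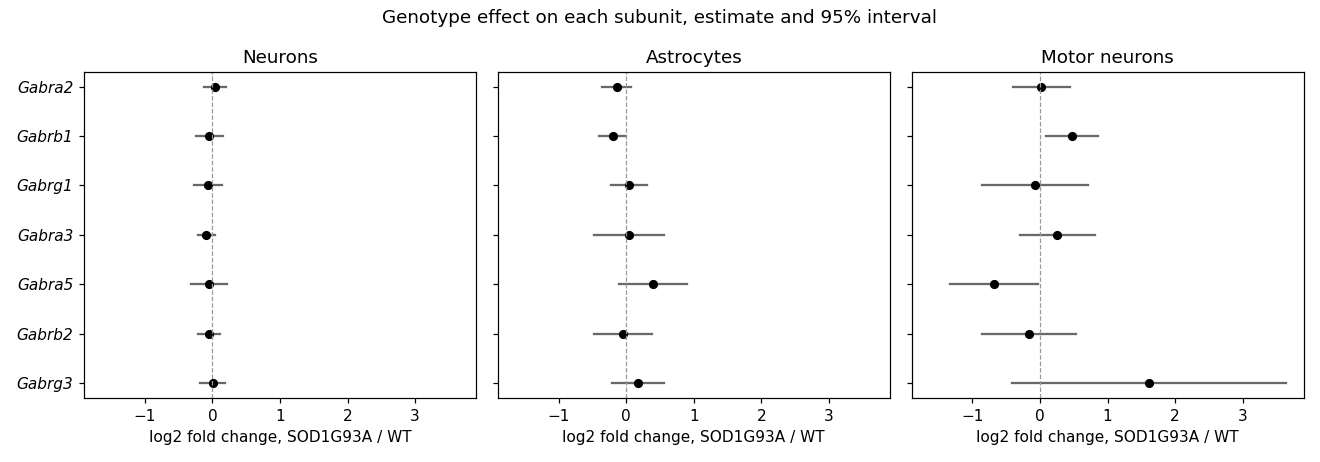
Genotype effect on each subunit in neurons, astrocytes and motor neurons, as the log2 fold change of SOD1G93A over WT mice from limma-voom (point) with its 95% interval (line). The neuron intervals all lie between −0.32 and 0.22, and the motor neuron interval of Gabrg3 reaches from −0.41 to 3.64.

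In astrocytes 2.29% of the genes tested were called, and none of the 7 members. Their log2 fold changes lay between −0.20 (Gabrb1) and 0.39 (Gabra5), with SEs of 0.097 to 0.24 and 95% intervals within −0.47 and 0.90. Gabra2 in astrocytes had a lowest, median and highest level of 1004, 1306 and 1510.1 CPM in WT and 952, 1126 and 1367 CPM in SOD1G93A mice, and Gabrg1 had 118, 145 and 154 and 106, 147 and 168 CPM. The groups overlapped for each of the 3 chromosome 5 members. The 3 astrocyte markers, of which all 3 had UMIs, summed to 867 to 1122 CPM in WT and 1672 to 2225 CPM in SOD1G93A mice without overlap, and the 5 neuron markers in the same nuclei to 632 to 1066 and 699.6 to 1507 CPM. The astrocyte markers include a gene that the authors report as differing between the genotypes in astrocytes. Their sum therefore does not measure astrocyte content alone. Sub-cluster 1 held 26.9% to 42.6% of the astrocyte nuclei of a WT mouse and 4.81% to 21.6% of those of a SOD1G93A mouse, and sub-cluster 3 7.56% to 12.0% and 13.4% to 31.1%, both without overlap. The shares of the mice overlapped in the other three, and none was tested, since the authors drew the sub-clusters from the expression of the same nuclei. Gabrb1 had a lower mean in SOD1G93A mice in 4 of the 5 sub-clusters. The WT and SOD1G93A levels were 6660.1 ± 1246 and 5070.0 ± 948 CPM in sub-cluster 3, 4668 ± 674 and 4175 ± 560.4 CPM in sub-cluster 1, and 2279 ± 323 and 2345 ± 595 CPM in sub-cluster 2. In sub-clusters 0 and 4 they were 4484 ± 523 and 4182 ± 265 CPM, and 3673 ± 1392 and 3089.5 ± 1119 CPM. The ranges of the genotypes overlapped in all 5. The part of the markers and of the makeup in the astrocyte values was not tested.

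In motor neurons 3.07% of the genes tested were called and again none of the members, from 1 to 11 nuclei per mouse. Gabrb1 had 506, 604 and 890.3 CPM (lowest, median, highest) in WT and 479.5, 751 and 1164 CPM in SOD1G93A mice, and a log2 fold change of 0.47 ± 0.18 (SE) in limma-voom (unadjusted p = 0.017, adjusted p = 0.19). Gabra5 had 55.4, 98.6 and 213 CPM in WT and 25.9, 57.4 and 74.4 CPM in SOD1G93A mice, and −0.68 ± 0.31 (SE) in limma-voom (unadjusted p = 0.04, adjusted p = 0.28). Both pairs of groups overlapped. Set against the WT mouse of the same pool and sex, Gabrb1 was higher in 3 and lower in 3 of 6 pairs, and Gabra5 lower in 5 of 6. When the WT female in pool B was left out, Gabra5 passed the limma-voom threshold with −1.03 (adjusted p = 0.062).

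Gabrg3 in motor neurons had 17.6, 57.4 and 569 CPM in WT and 0, 193 and 520.3 CPM in SOD1G93A mice. Of the 6 WT mice, 5 lay at or under 70.2 CPM, and the male WT mouse of pool A, with 5 nuclei, stood apart at 569 CPM. The log2 fold change was 1.62 ± 0.84 (SE) with all mice (limma-voom, unadjusted p = 0.1, adjusted p = 0.42) and 2.64 (adjusted p = 0.054) without that mouse, so that 1 mouse decided which side of the threshold it lay on. The 4 inhibitory neuron markers, all with UMIs, summed to 0 to 49.8 CPM in WT and 0 to 103 CPM in SOD1G93A motor neurons, and the excitatory neuron marker to 0 to 13.0 and 0 to 64.8 CPM. Without the filter on low counts, Gad2, an enzyme gene of GABA synthesis, had a log2 fold change of 2.40 (adjusted p = 0.00047) there in limma-voom. The vesicular transporter gene Slc32a1 had 2.02 (adjusted p = 0.039) in limma-voom. The part of these transcripts in the values of Gabrg3 was not tested.

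Among the neuron sub-types, 5 tests had an unadjusted p under 0.05 in limma-voom and none passed the adjustment. In VM neurons Gabrg3 had 702, 1219.8 and 2703 CPM (lowest, median, highest) in WT and 336, 834 and 1120.3 CPM in SOD1G93A mice, with overlap, and a log2 fold change of −0.69 ± 0.18 (SE) (limma-voom, unadjusted p = 0.00082, adjusted p = 0.61). Without the filter on low counts it passed in limma-voom, with −0.71 (adjusted p = 0.044). VM neurons had 1 to 36 nuclei per mouse. The lowest SOD1G93A value came from 1 nucleus, of the female of pool A. The highest WT value came from 8 nuclei of the male of pool C, with 1375 CPM in the next WT mouse. In VE neurons Gabrg3 had 439, 632 and 794 CPM in WT and 356, 456 and 549 CPM in SOD1G93A mice and a log2 fold change of −0.43 ± 0.16 (SE) (limma-voom, unadjusted p = 0.021, adjusted p = 1.00). Gabrg1 in VE neurons had −0.40 ± 0.19 (SE) (limma-voom, unadjusted p = 0.047, adjusted p = 1.00), Gabrb2 in ME neurons 0.58 ± 0.25 (SE) (unadjusted p = 0.033, adjusted p = 0.99) and Gabra5 in VM neurons 0.64 ± 0.29 (SE) (unadjusted p = 0.038, adjusted p = 1.00). Over all neurons the log2 fold change of Gabrg3 was 0.0068.

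Outside neurons, motor neurons and astrocytes, the tests with an unadjusted p under 0.05 fell in 2 types. In ependymal cells, which line the central canal, Gabrb1 had 363, 1880.3 and 2222 CPM (lowest, median, highest of 5 mice) in WT and 209, 552 and 1041 CPM in SOD1G93A mice. Its log2 fold change was −1.20 ± 0.41 (SE) in limma-voom (unadjusted p = 0.0047, adjusted p = 0.32), and −1.34 (adjusted p = 0.086) with the SOD1G93A male of pool A left out. These values rested on 228 UMIs of Gabrb1 in the WT and 46 in the SOD1G93A mice, from 1 to 21 ependymal nuclei per mouse. The 3 astrocyte markers, all with UMIs, summed to 114 to 281 CPM in WT and 0 to 417 CPM in SOD1G93A ependymal nuclei, the 5 neuron markers to 222 to 951 and 466 to 2716 CPM, and their part in the difference was not tested. In the Schwann_Meningeal nuclei the log2 fold changes of Gabrg3, Gabra5 and Gabra3 were −0.57, −0.54 and −0.51, with unadjusted limma-voom p values of 0.018 to 0.042 and adjusted p above 0.99. The 5 neuron markers there, all with UMIs, summed to 3042 to 5695 CPM in WT and 2516 to 5401 CPM in SOD1G93A mice, most of it from the 1 marker above its neuron level. The other 4 summed to 761 to 1598 CPM in WT and 991 to 1553 CPM in SOD1G93A mice, and 4 inhibitory neuron markers to 491 to 968 and 298 to 847 CPM. Their part in these values was not tested.

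Neither sex nor the difference of the genotype effect between the sexes gave a call among the members in the 10 cell types. Of all tests, 0.159% were called for sex and 0.0058% for the difference between the sexes. At an unadjusted p under 0.05, limma-voom gave 2 of 53 tests for sex (3.77%, against 5.56% of all tests, with 2 in edgeR and 2 in DESeq2) and 1 of 53 for the difference (1.89%, against 3.11%, with 0 in edgeR and 0 in DESeq2). Gabrb2 in oligodendrocytes had a female minus male log2 difference of 0.83 ± 0.24 (SE) (unadjusted p = 0.0045, adjusted p = 0.91, limma-voom). Its level was 9.48 CPM in oligodendrocyte nuclei without neuron marker UMIs and 39.9 CPM in all of them. The part of neuron transcripts in its sex difference was not tested. For Gabra2 in astrocytes the female minus male log2 difference was −0.27 ± 0.10 (SE) (unadjusted p = 0.015, adjusted p = 0.76, limma-voom). For Gabrb1 in ependymal cells the genotype effect in males minus that in females was 1.69 ± 0.81 (SE) (unadjusted p = 0.041, adjusted p = 0.98, limma-voom). In the neuron sub-types, where 0.0928% of all tests were called for sex and 0.0782% for the difference, no member was called either. There limma-voom gave 5 of 62 tests at an unadjusted p under 0.05 for sex (8.06%, against 4.73% of all tests, with 5 in edgeR and 4 in DESeq2). For the difference it gave 5 of 62 (8.06%, against 4.08%, with 5 in edgeR and 3 in DESeq2), of which 3 were Gabra5, in DI, VE and VM neurons. These 3 tests share the same mice. The WT female of pool B had the lowest Gabra5 level of all mice in DI (34.0 CPM) and VE neurons (71.7 CPM). In VM neurons that female had 42.9 CPM, where the lowest mouse had 42.7 CPM. The smallest p for sex was that of Gabrg3 in VM neurons, at −0.75 ± 0.18 (SE) (unadjusted p = 0.00034, adjusted p = 0.17, limma-voom). Gabra3 lies on the X chromosome, and it passed the threshold for sex in none of the 7 cell types tested.

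The other genes of the inhibitory synapse, 46 in 5 lists, were read beside the members. In the 10 cell types 1 of 259 genotype tests was called, where 0.568% of all tests were, and 2.29% of those in astrocytes, where the call fell. The median log2 fold change was 0.00981 for these genes and −0.069 for the members. The call was Dmd in astrocytes, which codes for dystrophin, a link between the membrane and the cytoskeleton that is also found at GABA synapses. Its log2 fold change was −0.43 ± 0.10 (SE, limma-voom, adjusted p = 0.036). The call was lost without any 1 of 5 mice, the SOD1G93A female of pool C, the WT females of pools A and C, the SOD1G93A male of pool A or the WT male of pool C, with limma-voom adjusted p of 0.10 to 0.14. The 35 tests in astrocytes included 6 with an unadjusted p under 0.05 (17.1%, against 13.6% of all genes tested in astrocytes). Among them were Slc12a5, the chloride exporter KCC2, at 0.56 ± 0.21 (SE, unadjusted p = 0.017, adjusted p = 0.24) in limma-voom and Gabarapl2, a relative of the receptor-associated protein GABARAP, at 0.50 ± 0.19 (SE, unadjusted p = 0.018, adjusted p = 0.25). Astrocyte nuclei also held neuron transcripts, with 5 neuron markers at 16.3% to 55.7% of their neuron level. The part of these transcripts in the astrocyte values was not tested. In oligodendrocytes Slc32a1, the transporter that packs GABA into vesicles, had 0.66 ± 0.18 (SE, unadjusted p = 0.0025, adjusted p = 0.72) in limma-voom, a gene of inhibitory neurons. By list, the cell types gave 0 calls of 41 tests for GABA synthesis, packing and uptake, 0 of 28 for other subunits, 0 of 16 for GABA-B receptors, 0 of 17 for chloride transporters and 1 of 157 for scaffold, assembly and traffic genes. In MI neurons Gad1, which makes GABA, had 0.57 ± 0.16 (SE, unadjusted p = 0.0014, adjusted p = 0.76) in limma-voom. No gene of these lists was called in the sub-types (293 tests, where 0.0252% of all tests were called).

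Genes with patterns like those of the members were sought over 18 types, the 9 neuron sub-types and the 9 other cell types, among 11795 genes with at least 20 CPM in 1 type or more. Of the 3 closest by Pearson's r of mean log2(CPM + 1), those named are Cntfr (r = 0.847) and Mical2 (0.835) for Gabra2, Rasgrf1 (0.968) and Mtus2 (0.96) for Gabra3, Scn1a (0.909) and Mreg (0.906) for Gabra5, and Kcnh7 (0.942) and Fbxo41 (0.941) for Gabrb2. For Gabrg3 they are Celf3 (0.941) and Kcnj6 (0.941), for Gabrg1 Acvr1c (0.886), Kcnc4 (0.855) and B3galt2 (0.855), and for Gabrb1 Trim9 (0.893), Fam227b (0.871) and the member Gabrg1 (0.851). Between members, r was 0.727 to 0.851 for the 3 pairs of chromosome 5 genes and 0.626 to 0.864 for the 6 pairs of the 4 others. Across the 2 sets, the 12 pairs had r of 0.178 to 0.538. The sets were read from levels that include the astrocyte point, and over the 9 neuron sub-types alone they did not separate. There r was as low as −0.269 within the 4 others (Gabra5 and Gabrg3) and as high as 0.826 across the sets (Gabra2 and Gabra3). The 18 points share mice, libraries and the neuron transcripts in other nuclei, so these values are descriptions.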

How the data were processed

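Nuclei from frozen lumbar spinal cord of 12 mice were hashed, run in 3 pools on the 10x Chromium v3 system and sequenced. The authors counted UMIs per gene and nucleus with Cell Ranger 3.1 on an mm10 pre-mRNA reference, so intronic reads are included, and assigned nuclei to mice from hashtag signals with Seurat 4.0.3. They discarded nuclei with fewer than 200 genes, more than 10% mitochondrial data, several hashtags or none, which removes doublets between mice but not within a mouse, and no further doublet caller was run. The deposited counts and the authors' labels of mouse, sex, genotype, cell type, neuron sub-type and astrocyte sub-cluster were used as they stand, all 12 mice matched their labels, and the integrated sctransform table was not used because sums per mouse need counts.

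UMIs were summed per mouse and type. Genes were kept by filterByExpr (minimum count 10), scaled with TMMwsp factors (edgeR 4.0.16) and tested with limma-voom (limma 3.58.1, R 4.3.3) with a term per sex and genotype group, pool as a block and robust eBayes, and p-values were adjusted by Benjamini-Hochberg over all genes of a type, with a threshold of 0.1. The procedure was tested on simulated data with a fixed spread between mice that was not taken from these counts. That test does not show its power for the members. Levels are CPM on the scaled libraries, and differences within a mouse are on the log2(CPM + 1) scale. Marker sums, levels in nuclei without neuron markers (Rbfox3, Syt1 and 1 more) and upper limits for 0 UMIs are unscaled. Alternatives were edgeR's quasi-likelihood test, DESeq2 1.42.0, other scaling factors and filters, a model without the pool term, eBayes without the robust option and leaving out each mouse. All 7 members are named, with single tests given at an adjusted p under 0.1 or an unadjusted p under 0.05. In the neuron sub-types the tests of sex and of the difference between the sexes are given as counts, with values for 1 test only. Of the other genes, those called are given and at most 2 per type of the smallest p. The members and lists were chosen with earlier results of these data known. Mice were prepared in pools that each held every group, and intervals from counts cover counting error only. In summed counts, fewer cells of a kind and less RNA per cell cannot be told apart within a type. Some results on single genes are not reported here.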

Additional observations from a re-analysis of the deposited data

Results flagged for a closer look

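Each member was looked at in every cell type, neuron sub-type and astrocyte sub-cluster with 6 mice of a genotype. In 26 of these 315 groups (8.25%) 1 mouse lay apart from the others (gap to the nearest mouse over the whole range above Dixon's critical value). For independent groups of normal values about 1 in 20 would be flagged. The groups here share nuclei and some rest on few UMIs, so an excess over that share cannot be read from the count. The groups with a mouse apart were 9 of 119 in the cell types, 12 of 126 in the neuron sub-types and 5 of 70 in the astrocyte sub-clusters.

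Among the cell types, for Gabrg3 in motor neurons the WT male of pool A had 569 CPM from 262 UMIs in 5 nuclei, and the next WT mouse 70.2 CPM. For Gabra5 in neurons the WT female of pool B was lowest at 53.3 CPM from 1062 UMIs in 1060 nuclei, and the nearest WT mouse had 96.5 CPM. In astrocytes, Gabra3 was highest in the WT male of pool C, at 69.7 against 49.9 CPM, and Gabra5 in the WT female of pool A, at 39.1 against 18.9 CPM, from 31 and 18 UMIs. For Gabrg3 in OPCs the SOD1G93A female of pool C had 52.1 CPM from 1 UMI in 2 nuclei, and the nearest SOD1G93A mouse 659 CPM. The others rested on 0 to 17 UMIs in the mouse apart: Gabra3 in endothelial cells of WT mice (39.4 CPM), Gabrb2 in those of SOD1G93A mice (26.1 CPM), and, in SOD1G93A mice, Gabrg1 in ependymal cells (124 CPM) and in the Schwann_Meningeal nuclei (0 CPM).

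Among the neuron sub-types, Gabrg3 in DE neurons was highest in the SOD1G93A male of pool B, at 2223 against 1759 CPM from 4847 UMIs in 243 nuclei. The same mouse was highest for Gabra2 in DI neurons (305 CPM, 443 UMIs) and for Gabrg1 in VC neurons (64.8 CPM, 45 UMIs). Gabrb1 in DI neurons was highest in the WT female of pool C, at 671 against 561 CPM. In MI neurons the WT male of pool C was highest for Gabra3 (321 CPM) and lowest for Gabrg1 (8.75 CPM, 3 UMIs). Gabra2 was lowest in VC neurons of the SOD1G93A female of pool C (76.2 CPM, 23 UMIs) and in VI neurons of the SOD1G93A female of pool A (17.6 CPM, 2 UMIs). In VM neurons 4 groups had a mouse apart, the WT male of pool C for Gabrg3 (2703 CPM from 8 nuclei, against 1375 CPM in the next), the WT female of pool A for Gabrg1 (48.8 CPM), and the SOD1G93A females of pools B for Gabra5 (165 CPM from 24 UMIs in 6 nuclei, against 86.2 CPM) and A for Gabrb1 (285 CPM, 1 nucleus).

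Among the astrocyte sub-clusters, Gabrg3 in sub-cluster 3 was highest in the WT female of pool A, at 588 CPM from 41 UMIs in 13 nuclei against 105 CPM in the next. The others rested on 3 to 13 UMIs: Gabra3 in sub-clusters 0 and 4 of WT mice (64.1 and 193 CPM) and Gabra5 in sub-cluster 0 of SOD1G93A (48.0 CPM) and sub-cluster 3 of WT mice (57.4 CPM). The part of depth or sampling in these values was not tested.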

How the results depend on the processing

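The count of members called for genotype in the 10 cell types was 0 under every alternative of test, scaling, filter, eBayes option and pool term, and 0 to 1 when a mouse was left out. The 1 was Gabra5 in motor neurons (WT female of pool B left out), Gabrb1 in ependymal cells (SOD1G93A male of pool A) or Gabrg3 in motor neurons (WT male of pool A). In the sub-types it was 1 without the filter on low counts, Gabrg3 in VM neurons. Pool is the replicate block of the design, as every pool held 1 mouse of each group, and without the block the count was 0 in both sets. The count of other inhibitory synapse genes called, 1 in the main analysis, was 4 without the filter, where Gad2 and Slc32a1, both higher in SOD1G93A motor neurons, were among them, and 0 to 2 when a mouse was left out. Members that differed the same way in every mouse numbered 4 with the 6 WT mice only, both for inhibitory minus excitatory neurons and for OPCs minus neurons, against 2 with all mice, and 2 to 4 for OPCs when a pool was left out. In neurons the log2 fold changes of 5 members crossed 0 when a mouse was left out, with ranges of −0.028 to 0.10 for Gabra2, −0.22 to 0.039 for Gabra5, −0.14 to 0.037 for Gabrb1, −0.14 to 0.017 for Gabrg1 and −0.072 to 0.069 for Gabrg3. The causes were not tested.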
